A study of Homo sapiens with 6 samples.

Results

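The genes described here encode chromatin regulators of the Polycomb and MLL-menin systems, namely EZH2, EED, SUZ12, BMI1, RING1, RNF2, KMT2A, MEN1, DOT1L and ASXL1. They were chosen by name, and every probe set that named 1 of them and no other gene was taken whatever its values. This gave 29 probe sets for 8 of the 10 genes, out of 54613 probe sets tested. KMT2A had 11 probe sets, ASXL1 6, SUZ12 and DOT1L 3 each, EED and RING1 2 each, and EZH2 and MEN1 1 each. The 1 probe set listed for BMI1 also names another gene, so no value is given for BMI1. RNF2 was not analysed here.

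RNA was taken from OCI-AML3, a human acute myeloid leukaemia cell line that carries a mutation of the nucleophosmin gene NPM1, and was hybridised to Affymetrix HG-U133 Plus 2.0 arrays. Of the 6 arrays, 3 came from cells given DMSO, the vehicle, and 3 from cells given 1 μM Vorinostat (SAHA), an inhibitor of histone deacetylases, for 24 h. Both groups are the same line, so neither stands for other leukaemias or for cells without the NPM1 mutation. Nothing in the labels or methods tells whether a group's 3 arrays are 3 cultures. The p-values therefore cover the spread between these arrays, and part of it may be technical.

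Polycomb repressive complex 2 (PRC2) places methyl groups on histone H3 (the mark H3K27me3), and Polycomb repressive complex 1 (PRC1) ubiquitinates histone H2A, and both marks go with silent genes. The MLL1 methyltransferase, encoded by KMT2A and tethered to chromatin with menin, methylates H3K4 at active genes, and DOT1L methylates another H3 residue (H3K79) along transcribed genes. In leukaemia with mutant NPM1 the HOX genes and MEIS1 are highly active, and MLL1, menin and DOT1L are known to sustain them, whereas Polycomb complexes silence HOX genes in other settings.

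Probe set values are log2 intensities as deposited, and all differences are Vorinostat minus DMSO on that log2 scale. Levels of different probe sets were not compared with each other. The arrays were unequal. A log2 value of 3, used here as the level below which a probe set was called dim, was reached by 8645, 3731 and 2761 probe sets on DMSO replicates 1, 2 and 3 and by 8158, 2769 and 3274 on Vorinostat replicates 1, 2 and 3. The regulators followed the same order. Of their 29 probe sets, 12, 5 and 1 reached 3 on the DMSO arrays and 9, 2 and 3 on the Vorinostat arrays. Replicate 1 of each group was thus the array on which most regulators could be read. Averaged over the 6 arrays, 4 regulator probe sets reached 3, or 13.8% against 9.01% of all probe sets, and these 4 belonged to RING1, EZH2, MEN1 and SUZ12. For EED, KMT2A, DOT1L and ASXL1 the mean of every probe set was under 3, so these genes were mostly read at dim levels. The brightest probe sets of EZH2, SUZ12 and RING1 were also dim on some arrays, and reached 3 on 2, 3 and 4 of the 6. For EZH2 the 2 were the replicate 1 arrays. As a check of the cell type, 3 of the 9 myeloid leukaemia markers with a probe set had a mean of at least 3 (CEBPA, ELANE and LYZ), while MPO, KIT and CD34 did not. None of 21 measured markers of lymphoid, erythroid, fibroblast, epithelial and endothelial cells reached that mean.

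The values of EZH2, EED and SUZ12, which together form the core of PRC2, were lower on average after Vorinostat, by 1.02, 0.82 and 0.56 on the log2 scale for the brightest probe set of each gene. None of the 3 differences exceeded the spread between replicates in the fit of limma. All 3 probe sets were far brighter on the replicate 1 arrays than on the others, in both groups.

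EZH2, the catalytic subunit that methylates H3K27, lies on chromosome 7 at 148807383-148884291 (GRCh38.p14). EED, which binds the methylated residue and stimulates EZH2, lies on chromosome 11 at 86244753-86287615. SUZ12, which holds the complex together, lies on chromosome 17 at 31937007-32001038. The sequences from 200 bases before to 10 bases after a RefSeq start of each gene are shown because the 3 genes belong to 1 complex and had mean differences of the same sign, and because EZH2 and EED are known E2F targets. That sign was negative for 7 of the 8 regulators by brightest probe set, so it does not set these 3 genes apart. Capitals mark an E2F-type motif, searched as TTTGGCGC, TTTCCCGC, TTTCGCGC or TTTGCCGC on both strands. Each sequence runs 5′ to 3′ on the strand of its gene, in build GRCh38.p14.
EZH2, chr7:148884282-148884491, minus strand: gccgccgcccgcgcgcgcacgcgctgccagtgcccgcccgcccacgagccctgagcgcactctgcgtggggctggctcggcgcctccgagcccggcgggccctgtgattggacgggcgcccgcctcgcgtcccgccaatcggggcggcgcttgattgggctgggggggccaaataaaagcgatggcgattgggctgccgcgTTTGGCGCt
EED, chr11:86244553-86244762, plus strand: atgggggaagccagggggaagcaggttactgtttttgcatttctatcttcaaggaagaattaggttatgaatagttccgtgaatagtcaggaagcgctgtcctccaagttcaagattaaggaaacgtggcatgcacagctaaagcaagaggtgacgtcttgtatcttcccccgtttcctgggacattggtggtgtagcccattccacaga
SUZ12, chr17:31936807-31937016, plus strand: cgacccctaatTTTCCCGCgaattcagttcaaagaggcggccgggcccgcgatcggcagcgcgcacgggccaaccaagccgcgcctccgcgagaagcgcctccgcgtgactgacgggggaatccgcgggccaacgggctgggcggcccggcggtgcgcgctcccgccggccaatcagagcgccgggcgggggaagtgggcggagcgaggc
In windows from 250 bases before to 50 bases after the start, 1164 of 35116 RefSeq promoters (3.31%) held at least 1 of these motifs. EZH2 has 2 such windows, and 1 of them held TTTGGCGC, beginning at position 2 counted from the start as 1. SUZ12 held TTTCCCGC, beginning at position −189 relative to the start. The letters were not present in the EED window or in the windows of the other members that have one. Over these windows of 300 bases, which are longer than the printed sequences, those of EZH2 and SUZ12 shown here were rich in G and C. They held 74.7% and 73.0%, with 46 and 40 CG pairs, against a median of 58.7% and 14 CG pairs over all windows. That of EED had 52.3% and 16. Windows of the other members ran from 58.3% (MEN1) to 91.0% (BMI1). A match of letters is a description of the sequence, and the arrays do not measure binding to it.

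The single EZH2 probe set, 203358_s_at, read 5.58, 2.25 and 2.74 on DMSO replicates 1 to 3 and 3.56, 1.93 and 2.01 on Vorinostat replicates 1 to 3. The group means were 3.52 ± 1.79 for DMSO and 2.50 ± 0.92 for Vorinostat (SD, n = 3 each). The groups overlapped, since the highest Vorinostat array lay above the lower pair of DMSO arrays. The difference was −1.02 (SE 1.00, 95% confidence interval −3.54 to 1.50, limma adjusted p = 1, unadjusted p = 0.351). Within the replicate numbers it was −2.01, −0.33 and −0.73, so each Vorinostat array read below the DMSO array of the same number. With the replicate number as a block, which takes out the level that same-numbered arrays share, the standard error narrowed to 0.365 and the unadjusted p to 0.0465, while the limma adjusted p was 0.887. RNA was taken from whole cultures, so fewer cells with the transcript and less transcript per cell cannot be told apart.

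For EED, probe set 209572_s_at read 5.74, 2.39 and 1.68 with DMSO and 3.85, 1.35 and 2.14 with Vorinostat. The group means were 3.27 ± 2.17 and 2.45 ± 1.28 (SD). The groups overlapped, and the replicate 3 pair ran the other way from the other pairs, with differences of −1.89, −1.04 and 0.46. The mean difference was −0.82 (SE 1.25, 95% confidence interval −3.97 to 2.32, limma adjusted p = 1, unadjusted p = 0.537). The other EED probe set, 210656_at, was under 3 on all 6 arrays.

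For SUZ12, probe set 212287_at read 6.86, 3.15 and 2.29 with DMSO and 6.11, 2.17 and 2.35 with Vorinostat. The group means were 4.10 ± 2.43 and 3.54 ± 2.23 (SD). Replicate 1 of either group stood above every other array, and the groups overlapped. The mean difference was −0.56 (SE 1.64, 95% confidence interval −4.67 to 3.55, limma adjusted p = 1, unadjusted p = 0.746), with −0.75, −0.98 and 0.06 within the replicate numbers. The other SUZ12 probe sets, 1566190_at and 1566191_at, were under 3 on all 6 arrays.

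The sign of all 3 differences turned when DMSO replicate 1, the brightest array, was left out and the bright Vorinostat replicate 1 was kept, to 0.0022 for EZH2, 0.41 for EED and 0.82 for SUZ12. It did not turn when both replicate 1 arrays were left out (−0.53, −0.29 and −0.46). SUZ12 also turned without Vorinostat replicate 2 (0.13) or Vorinostat replicate 3 (0.038).

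**Figure D1:**
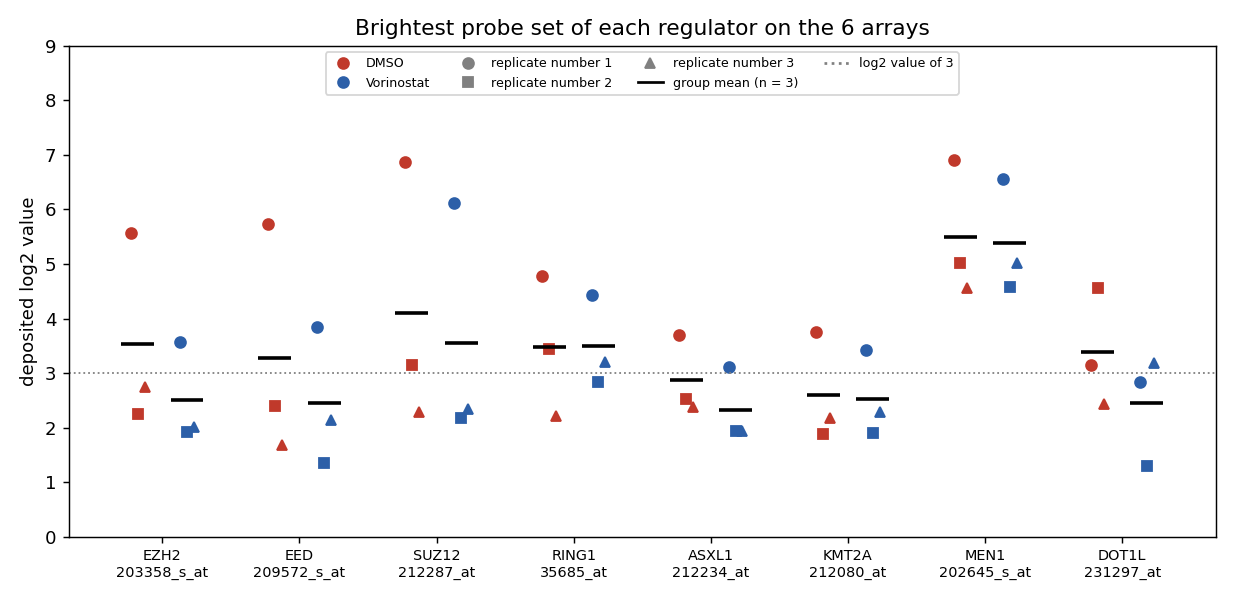
Deposited log2 value of the brightest probe set of each of the 8 regulators (vertical axis) on the 6 arrays, with DMSO in red, Vorinostat in blue, the replicate number given by the symbol and a black bar for the mean of 3 arrays. Replicate 1 (circles) is the highest DMSO value for every gene except DOT1L, and MEN1 is the gene whose 6 values all lie above the dotted line at a log2 value of 3.

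RING1, a ubiquitin ligase of PRC1 that acts on histone H2A, lies on chromosome 6 at 33208500-33212716 (GRCh38.p14), and its values did not separate the groups. The brighter probe set, 35685_at, read 4.77, 3.45 and 2.21 with DMSO and 4.42, 2.84 and 3.21 with Vorinostat. The means were 3.48 ± 1.28 and 3.49 ± 0.83 (SD, n = 3 each), and the difference was 0.01 (SE 0.761). The 95% confidence interval ran from −1.90 to 1.93, so a change by 2-fold, which is 1 on the log2 scale, lay inside it in either direction. With the replicate number as a block the interval was −0.96 to 0.99, just short of 2-fold either way. The block assumes that the numbers pair the arrays. The other probe set, 208371_s_at, read 3.64, 2.25 and 1.74 with DMSO and 4.99, 2.16 and 2.56 with Vorinostat. Its difference of 0.69 (SE 0.906) did not exceed the spread between replicates either (limma adjusted p = 1, unadjusted p = 0.477). The pairs of both probe sets disagreed in sign. BMI1 (chromosome 10, 22321099-22331706) and RNF2 (chromosome 1, 185045558-185102603), which encode other core subunits of PRC1, have no value here.

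ASXL1, on chromosome 20 at 32358331-32439319 (GRCh38.p14), is a partner of the deubiquitinase BAP1, which removes the ubiquitin that PRC1 places. Its probe sets differed in sign, with 2 negative and 4 positive mean differences. The brightest, 212234_at, read 3.70, 2.52 and 2.37 with DMSO and 3.10, 1.93 and 1.94 with Vorinostat. The group means were 2.86 ± 0.73 and 2.33 ± 0.67 (SD). Each Vorinostat array was below the DMSO array of the same number, by a similar amount (−0.59, −0.59 and −0.43), although the groups overlapped. The mean difference was −0.54 (SE 0.497, limma adjusted p = 1, unadjusted p = 0.326), and with the replicate block the standard error was 0.10 (limma adjusted p = 0.887, unadjusted p = 0.00523). The difference was −0.12 without DMSO replicate 1, −0.34 without Vorinostat replicate 2 or 3, −0.93 without Vorinostat replicate 1, and −0.20 with values under 3 set to 3.

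Another ASXL1 probe set, 244519_at, had values under 3 on all arrays, with 1.28, 1.54 and 1.42 for DMSO and 2.27, 2.53 and 1.60 for Vorinostat. All 3 Vorinostat values lay above all 3 DMSO values, and the difference was 0.72 (SE 0.259, limma adjusted p = 1, unadjusted p = 0.0361). It stayed under an unadjusted p of 0.05 without Vorinostat replicate 3 and did not without any 1 of the other 5 arrays. Probe set 212238_at read 2.63, 1.37 and 1.29 with DMSO and 2.90, 1.70 and 1.42 with Vorinostat, and was higher in each replicate number by 0.26, 0.34 and 0.13 (unadjusted p = 0.675, limma adjusted p = 1). The remaining ASXL1 probe sets, 242439_s_at, 212237_at and 242438_at, differed by 0.32, −0.27 and 0.07 with mixed signs between the pairs. The files do not say which transcripts of ASXL1 each probe set reads.

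KMT2A, on chromosome 11 at 118436492-118526832, and MEN1, on the same chromosome at 64803516-64811294 (GRCh38.p14), encode MLL1 and menin. The MEN1 probe set and the brightest KMT2A probe set did not differ between the groups beyond the spread between replicates. MEN1 was read by 1 probe set, 202645_s_at, the only regulator probe set at or above 3 on all 6 arrays. It read 6.91, 5.01 and 4.57 with DMSO and 6.55, 4.58 and 5.02 with Vorinostat. The means were 5.50 ± 1.25 and 5.39 ± 1.03 (SD, n = 3 each), and the values of the groups interleaved. The difference was −0.11 (SE 0.807, 95% confidence interval −2.14 to 1.92), and a change by 2-fold either way lay inside this interval. With the replicate block the interval was −0.71 to 0.49, which leaves out such a change only if the replicate numbers pair the arrays. The sign of this difference turned without DMSO replicate 1, without Vorinostat replicate 2 and without Vorinostat replicate 3, with values of 0.60, 0.29 and 0.071.

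The brightest KMT2A probe set, 212080_at, read 3.76, 1.89 and 2.17 with DMSO and 3.42, 1.90 and 2.28 with Vorinostat. Same-numbered arrays lay close together (−0.33, 0.01 and 0.11), and the mean difference was −0.07 (SE 0.641, 95% confidence interval −1.68 to 1.54). With the block the interval was −0.43 to 0.29. Another probe set, 226981_at, also reached 3 on the replicate 1 arrays, with 3.73, 1.62 and 1.50 for DMSO and 3.04, 1.65 and 1.65 for Vorinostat. The other 9 were under 3 on all 6 arrays. Among these, 220546_at read 1.75, 1.72 and 1.84 with DMSO and 1.48, 1.41 and 1.64 with Vorinostat, so that all Vorinostat values lay below all DMSO values (difference −0.26, SE 0.103, unadjusted p = 0.052, limma adjusted p = 1). A further one, 212076_at, read 2.17, 1.60 and 1.43 with DMSO and 1.77, 1.46 and 1.34 with Vorinostat, lower in each replicate number (difference −0.21, SE 0.236). Differences of the remaining KMT2A probe sets lay between −0.17 and 0.08.

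DOT1L, the methyltransferase of H3K79, lies on chromosome 19 at 2163933-2232578 (GRCh38.p14). Its 3 probe sets all had negative mean differences, and in the brighter pair the replicate numbers disagreed. Probe set 231297_at read 3.15, 4.56 and 2.43 with DMSO and 2.84, 1.30 and 3.19 with Vorinostat. The mean difference of −0.94 (SE 0.736, limma adjusted p = 1, unadjusted p = 0.255) came mostly from the replicate 2 pair, where it was −3.26, against −0.31 and 0.76 in the others. Probe set 226201_at ran alike, with 3.10, 3.34 and 2.34 for DMSO and 2.28, 2.19 and 2.78 for Vorinostat, a difference of −0.51 (SE 0.312, limma adjusted p = 1, unadjusted p = 0.160). In the dimmest probe set, 214865_at, the DMSO values of 1.51, 1.45 and 1.76 all lay above the Vorinostat values of 1.33, 1.38 and 1.44. That difference was −0.19 (SE 0.117).

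**Figure D2:**
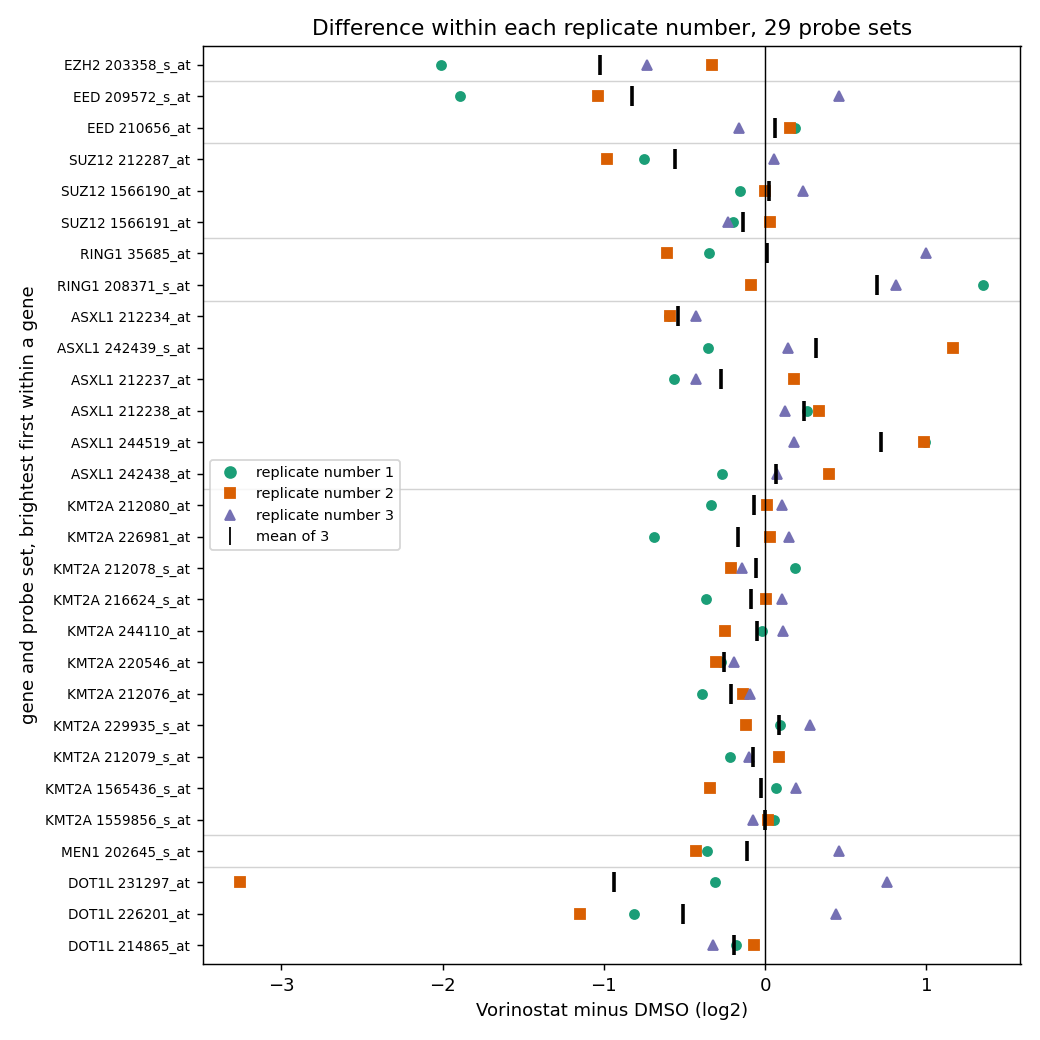
Vorinostat minus DMSO on the log2 scale (horizontal axis) within each replicate number for all 29 regulator probe sets (vertical axis), with a black bar for the mean of the 3 differences. Symbols of the 3 numbers lie on the same side of 0 for 7 probe sets, among them EZH2 (−2.01, −0.33 and −0.73), and the symbol farthest from 0 is replicate number 2 of DOT1L 231297_at at −3.26.

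Counted together, few regulator probe sets passed any threshold. After adjustment over all probe sets, 0 of the 29 passed an adjusted p under 0.05 in limma, and 0.0% of all probe sets did. At an unadjusted p under 0.05, 1 regulator probe set was higher (ASXL1 244519_at), against 0.498% of all probe sets, and 0 were lower, against 0.5%. By the methods' t-test 1 was lower (KMT2A 220546_at), against 1.18% of all probe sets, and 0 were higher, against 0.861%. With the p-value of limma, the study's threshold of a 2-fold change and an unadjusted p under 0.05 was met by 0, against 0.0439% of all probe sets. The study set this threshold in its own analysis, and its gene list was not compared with these counts.

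With the replicate number as a block, 2 regulator probe sets were lower at an unadjusted p under 0.05 (EZH2 203358_s_at and ASXL1 212234_at), against 2.09% of all probe sets. The 1 that was higher was again ASXL1 244519_at, against 1.59%. EZH2 was then past the threshold that adds a 2-fold change, which 0.416% of all probe sets passed. No regulator passed an adjusted p under 0.05 with the block.

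The groups did not overlap for 1 probe set that was higher (ASXL1 244519_at), where 2.39% of all probe sets did so, and for 2 that were lower (KMT2A 220546_at and DOT1L 214865_at), where 2.87% did. Vorinostat was higher in each replicate number for 2 of the 29 (ASXL1 212238_at and 244519_at), against 12.4% of all probe sets. It was lower in each for 5 of the 29, against 14.7%. These 5 were EZH2 203358_s_at, ASXL1 212234_at, KMT2A 220546_at and 212076_at, and DOT1L 214865_at. The mean difference was negative for 19 of the 29, against 54.0% of all probe sets.

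By gene, using the brightest probe set of each, 0 of 8 regulators were higher or lower at an unadjusted p under 0.05 in limma, against 0.602% and 0.389% of 19775 genes. EZH2 and ASXL1 were the 2 that were lower in each replicate number, which was so for 13.7% of all genes, and 0 were higher in each, against 13.0%. The difference was negative for 7 of 8, against 53.1% of all genes. Among probe sets with a mean of at least 3 it was negative for 3 of 4 regulator probe sets and for 3435 of all 4920. Of these 4, EZH2 reached that mean through its DMSO arrays (DMSO mean 3.52, Vorinostat mean 2.50). Its negative sign, and its part in the median of the 4, therefore cannot be read apart from the filter. The median difference of the 8 was −0.55, against −0.02 over all genes. The brightest probe sets of 10 housekeeping genes, a list taken as a control, had a median of −0.59 and were all negative, and 9 of them had a mean of at least 3. The list holds PGK1, which the study names among the genes decreasing with Vorinostat, so it is not a neutral reference. The medians of the housekeeping genes by replicate number were 0.04, −1.74 and −0.28. Over the 29 probe sets the median was −0.08, against −0.02 over all probe sets. Among probe sets with a mean of at least 3, it was −0.33 for the 4 regulators and −0.24 over all 4920. By replicate number, the median of the 8 regulators was −0.48, −0.60 and 0.28, so the number 3 arrays ran in the opposite direction and the order differed from that of the housekeeping genes. For each of the 8 the range of the 3 DMSO values exceeded the size of the difference, and the median of those ranges was 2.45.

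**Figure D3:**
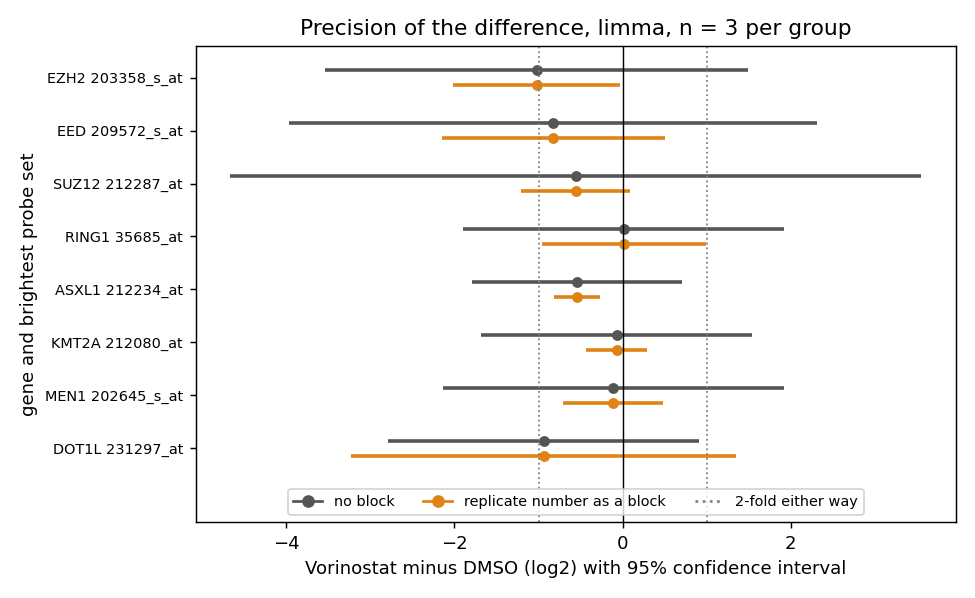
Vorinostat minus DMSO on the log2 scale (horizontal axis) for the brightest probe set of the 8 regulators, with 95% confidence intervals from limma without a block (grey) and with the replicate number as a block (orange), and dotted lines at 2-fold either way. Without the block all 8 intervals include 0, and with it those of EZH2 and ASXL1 end below 0 while that of DOT1L widens.

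The partners of the regulators were read from lists fixed by function, again by the brightest probe set of each gene. Of 59 listed genes, 56 had a probe set and 22 had a mean of at least 3. At an unadjusted p under 0.05 in limma, 2 were higher and 0 lower, where 0.602% and 0.389% of all genes were. With the replicate block 4 were higher and 2 lower, where 2.25% and 3.12% of all genes were. The difference was negative for 36 of the 56, against 53.1% of all genes. Vorinostat was lower in each replicate number for 6 of the 56, against 13.7% of all genes, and higher in each for 7, against 13.0%. Their median difference was −0.16.

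Of the 8 other PRC2 subunits, 5 were negative and 3 positive, the median was −0.23, and 0 kept 1 sign in all replicate numbers. The histone-binding subunit RBBP4 read 5.10, 3.12 and 2.64 with DMSO and 3.86, 2.59 and 2.70 with Vorinostat, a difference of −0.57 (SE 0.738, limma adjusted p = 1). Its paralogue RBBP7 read 7.90, 4.26 and 1.90 with DMSO and 6.87, 1.97 and 2.47 with Vorinostat, and so varied far more between arrays of a group than between the groups (difference −0.92, SE 2.01). EZH1, the other methyltransferase that PRC2 can carry, differed by −0.20 (SE 0.279).

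Of the 18 other PRC1 subunits, 16 had a probe set, with 9 negative and 7 positive differences and a median of −0.04. PCGF5, a Polycomb ring finger protein of variant PRC1, read 2.30, 1.93 and 1.96 with DMSO and 2.50, 2.47 and 2.66 with Vorinostat. Its groups did not overlap, at a level under 3 on every array, and the difference was 0.48 (SE 0.139, limma adjusted p = 1, unadjusted p = 0.0162). The chromodomain protein CBX7 and the ring finger protein PCGF6 differed by 0.15 (SE 0.113) and 0.23 (SE 0.213). The 7 measured genes in the group of ASXL1 and BAP1 do not include BAP1 itself. Of these 7, 5 were negative, with a median of −0.24. MBD5, which associates with that deubiquitinase, read 2.06, 1.95 and 1.82 with DMSO and 2.43, 2.43 and 2.23 with Vorinostat, again under 3 and without overlap (difference 0.42, SE 0.115, limma adjusted p = 1, unadjusted p = 0.0126). ASXL3, a paralogue of ASXL1, differed by −0.44 (SE 0.614) and the transcription factor FOXK1 by −0.33 (SE 0.542).

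Among the 9 partners of MLL1 and menin the median was −0.04, with 6 negative and 3 positive differences. HCFC1, a scaffold protein of MLL complexes, read 5.52, 4.36 and 3.90 with DMSO and 4.22, 2.78 and 3.30 with Vorinostat. It was lower in each replicate number, with differences of −1.30, −1.58 and −0.60. It was the single partner of the 9 with that pattern, which 13.7% of all genes had. The difference of −1.16 (SE 0.557) had an unadjusted p of 0.0871 and a limma adjusted p of 1, and with the replicate block the unadjusted p was 0.0057 and the limma adjusted p 0.887. The methyltransferase KMT2B and the shared subunit WDR5 differed by −0.18 (SE 0.268) and −0.25 (SE 0.453).

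Of the 9 elongation partners of DOT1L, 6 were negative and 3 positive (median −0.16). AFF1, a scaffold of the super elongation complex, read 5.34, 2.29 and 1.74 with DMSO and 6.87, 2.45 and 3.98 with Vorinostat, higher in each replicate number though the groups overlapped. Its difference was 1.31 (SE 1.47, limma adjusted p = 1, unadjusted p = 0.413), and with the replicate block the unadjusted p was 0.0375 and the limma adjusted p 0.887. MLLT10, a cofactor of DOT1L named here after its values were seen, also passed an unadjusted p under 0.05 with the block (difference 0.43). AFF1 and MLLT10 were thus 2 of 9 that were higher with the block, against 2.25% of all genes. Of the 9, 3 were higher in each replicate number, against 13.0% of all genes. They were AFF1, MLLT10 and CDK9, the last also named after its values were seen (difference 0.16, under 3 on all arrays). The elongation factor ELL differed by −0.29 (SE 0.241) and the reader protein MLLT3 by −0.15 (SE 0.215). In the list of H3K27 demethylases and subunits of the MLL3 and MLL4 complexes, 5 of 7 were negative (median −0.40). Of the 7, 3 were lower in each replicate number, against 13.7% of all genes, namely PAXIP1 (difference −0.51) and, named after their values were seen, KDM6A and NCOA6 (−0.23 and −0.54). NCOA6 was the 1 gene of the list that passed an unadjusted p under 0.05 with the block, where 3.12% of all genes were lower. The adaptor PAGR1 differed by −0.73 (SE 0.602) and the demethylase KDM6B by 0.18 (SE 0.221).

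Of 21 listed HOX genes and other known targets of these regulators, 12 had a probe set of their own. The HOX genes among the 12 were all HOXB genes, so no HOXA gene was read. A mean of at least 3 was reached by 2 of the 12, HOXB3 and HOXB8, and HOXB8 was at or above 3 on DMSO replicate 3 alone. In limma 0 passed an unadjusted p under 0.05, where 0.602% of all genes were higher and 0.389% lower. With the block 0 passed as well, where 2.25% and 3.12% of all genes did. The median difference was −0.06, with 7 negative and 5 positive values. HOXB8 read 2.93, 2.54 and 6.10 with DMSO and 2.18, 2.07 and 2.49 with Vorinostat. All Vorinostat values lay below all DMSO values, but most of the difference of −1.61 (SE 0.978, unadjusted p = 0.156, limma adjusted p = 1) came from DMSO replicate 3. HOXB5 and HOXB6 differed by −0.19 (SE 0.158) and −0.13 (SE 0.106) at levels under 3. MEIS1, the cofactor of HOX proteins, was named after its values were seen and differed by −0.10 (SE 0.726). HOXB3, likewise named after its values were seen, differed by 0.36 (SE 1.30) and was higher in each replicate number. Of the 12, 3 were lower in each replicate number and 2 higher in each, against 13.7% and 13.0% of all genes.

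**Figure D4:**
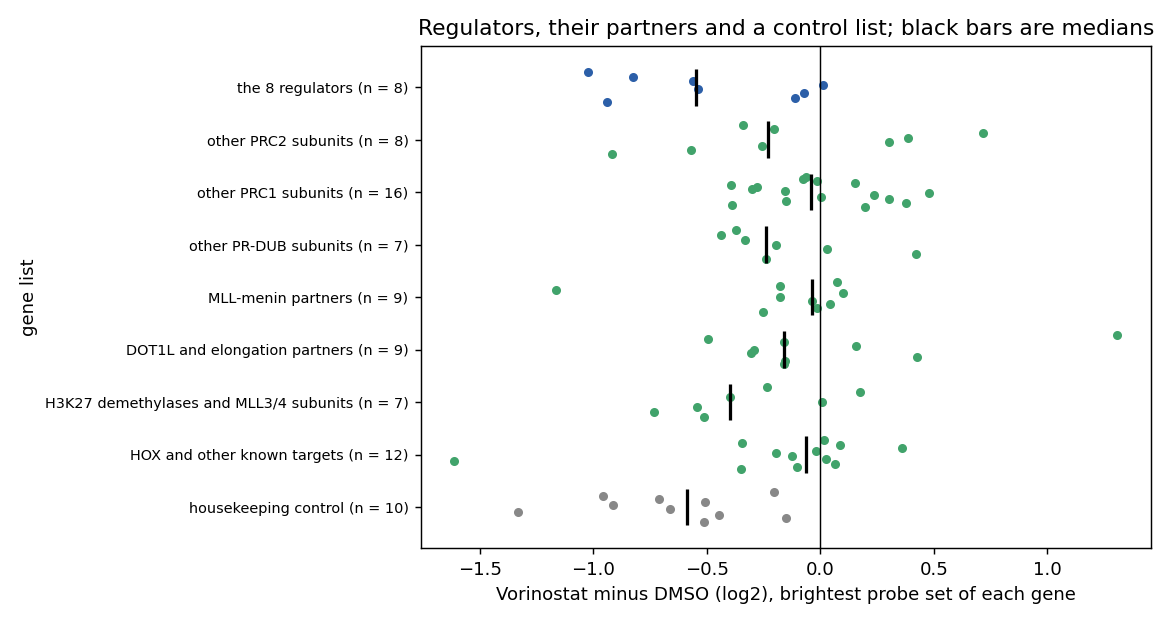
Vorinostat minus DMSO on the log2 scale (horizontal axis) for the brightest probe set of each gene, in the 8 regulators (blue), 7 lists of partners and targets (green) and a housekeeping control (grey), with a black bar for each median. The medians of the regulators (−0.55) and of the control (−0.59) lie close together and left of those of the 7 other lists, which run from −0.40 to −0.04.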

How the data were processed

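RNA of OCI-AML3 cells given DMSO (3 arrays) or 1 μM Vorinostat for 24 h (3 arrays) was measured on Affymetrix arrays. The authors deposited 1 table of log2 values per probe set and array, with the scale read from the values (0.868 to 13.76). The methods name Partek Genomics Suite for the import of the array files. MAS5 and RMA appear in the submitters' processing notes, which give neither their order nor a version. The arrays' distributions differ, so the values are not quantile normalised. Groups and replicate numbers come from the sample titles.

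Of 54675 probe sets, 62 controls were left out and 54613 tested without a filter, by limma 3.58.1 (lmFit and eBayes, R 4.3.3) with Benjamini-Hochberg adjustment. The fit was tested on simulated data. Gene names follow the platform annotation, in which 41091 probe sets name 1 gene. The brightest probe set of a gene is that with the highest mean over the 6 arrays. No exact permutation test was used, since its smallest two-sided p for these groups is 0.1. The number of arrays limits the precision.

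Deviations from group means correlated at 0.874, 0.599 and 0.672 for replicate numbers 1, 2 and 3. Each was above 0.1, the level set for treating the numbers as pairs. Arrays of different numbers correlated as well (0.695 for DMSO 3 with Vorinostat 2), so numbers 2 and 3 were not told apart. No source states the pairing, and results with the replicate block rest on it as an assumption.

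The members and lists were chosen with earlier results of these data known. All arrays are given for the brightest probe set of each member and for others with an unadjusted p under 0.05 or 1 sign in all replicate numbers, and from each list the 3 genes with the smallest unadjusted p are named. Alternatives were the replicate block, the methods' t-test (two-tailed), quantile normalisation, an intensity trend, a mean of at least 3, values under 3 set to 3, both number 1 arrays left out, and each array left out in turn. Probe sets naming several genes were not used. Promoter sequences and gene positions are from RefSeq (GRCh38.p14). Windows were given for 9 of the 10 members and none for DOT1L.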

Additional observations from a re-analysis of the deposited data

How the results depend on the processing

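Among 13 regulator probe sets recomputed under the alternatives other than leaving out 1 array, 64 values kept their sign and side of an unadjusted p of 0.05, 5 moved past it, 3 fell short of it and 5 turned. Those that turned were KMT2A 212080_at after quantile normalisation (0.021) and without both number 1 arrays (0.060), MEN1 under the same alternatives (0.24 and 0.014), and RING1 35685_at with values under 3 set to 3 (−0.20). The count of regulators lower at an unadjusted p under 0.05 was 0, and 2 with the replicate block, 1 by the methods' t-test (KMT2A 220546_at), 1 after quantile normalisation and 1 without both number 1 arrays (ASXL1 212234_at in both), and 0 to 1 with an array left out. The count of those higher was 1, and 0 by the methods' t-test, after quantile normalisation, with a mean of at least 3, with values under 3 set to 3 and without both number 1 arrays. It was 0 to 1 with an array left out, since ASXL1 244519_at kept its call without Vorinostat replicate 3 and lost it without any other array. The count past 2-fold was 0, and 1 with the replicate block. The median of the regulators was −0.08, −0.33 with a mean of at least 3 (4 probe sets), and −0.18 to 0.014 with an array left out. Leaving out each array in turn gave ranges of −1.66 to 0.0022 for EZH2, −1.62 to 0.41 for EED, −1.84 to 0.82 for SUZ12, −0.69 to 0.60 for MEN1, −0.52 to 0.50 for KMT2A 212080_at, −0.36 to 0.0094 for KMT2A 212076_at, −0.93 to −0.12 for ASXL1 212234_at, −0.20 to 0.68 for ASXL1 212238_at and −0.62 to 0.66 for RING1 35685_at. DMSO replicate 1 turned EZH2, EED, SUZ12, MEN1 and both KMT2A probe sets when left out. SUZ12 and KMT2A 212080_at also turned without Vorinostat replicate 2 (0.13 and 0.25) or 3 (0.038 and 0.057), ASXL1 212238_at without Vorinostat replicate 1 (−0.20), and RING1 without DMSO replicate 2 (−0.0028), DMSO replicate 3 (−0.62) or Vorinostat replicate 1 (−0.45). The causes were not tested. An adjusted p under 0.05 was reached by 0 of all probe sets under each alternative. Signal limits these values, since 16 of the 29 probe sets were under a log2 value of 3 on all 6 arrays.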
